A study of Mus musculus with 8 samples.

Results

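The organic anion and cation transporters were taken as every row of the count matrix whose symbol names a numbered gene of the Slc22a or Slco families, or Slc47a1 or Slc47a2, and these were 42 of 55487 genes. The Slc22 family gave 25 of them, in 4 groups. These were organic cation transporters (OCT), 4 carnitine and zwitterion transporters (OCTN), 13 organic anion transporters (OAT) and 5 other Slc22 genes. The Slco family of organic anion transporting polypeptides (OATP) gave 15, and the multidrug and toxin extrusion proteins (MATE) gave 2. Expression was compared between Bmal1+/+ mice and mice of a line whose Bmal1 gene, a transcription factor of the circadian clock, was disrupted (Bmal1-/-), bred from heterozygous founders. Every mouse carried a subcutaneous tumor of MC38, a mouse colon carcinoma line labelled with GFP. The RNA is labelled as coming from the stromal vascular fraction, the cells left once GFP-positive tumor cells had been sorted away. There were 4 libraries per group, and neither the age nor the sex of the mice is labelled.

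These transporters carry charged small molecules across the plasma membrane. OATPs and OATs take up bile acids, steroid conjugates, bilirubin, urate and many drugs, OCTs take up cationic compounds, OCTNs take up carnitine, and MATEs exchange organic cations for protons on the way out of the cell. In liver and kidney they set which compounds enter the epithelial cell, while ATP-driven pumps of the ABC family export the products into bile or urine. Several hepatic members are known in mice for levels that differ between males and females.

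The library totals lay between 14054825 and 18449143 counts. Bmal1 (Arntl) itself had 15 to 45 counts in Bmal1+/+ libraries and 444 to 524 counts in the others. Since this goes against the label, those samples are called the libraries labelled Bmal1-/- throughout. These counts are summed over the gene and do not show which exons they came from. Of 10 clock genes, Arntl among them, 2 were higher and 7 lower in that group, and of these Dbp and Nr1d1, which Bmal1 is known to activate, had mean levels of 94.8 and 44.1 CPM in Bmal1+/+ libraries and of 4.74 and 2.82 CPM in the others. Transcripts of the hepatocyte marker list took 11.9 to 13.2% of all counts in Bmal1+/+ libraries and 7.97 to 8.74% in the libraries labelled Bmal1-/-, whereas the fibroblast list took 0.0147 to 0.0225% and 0.0106 to 0.0115%, so the defining transcripts of liver were abundant in RNA labelled as tumor stroma. Of 15 hepatocyte markers 2 were higher, 12 were not called and 1, Alb, was lower in the libraries labelled Bmal1-/-. Alb alone had a mean of 69270 CPM in Bmal1+/+ libraries and 16144 CPM in the others. The summed list had a median of 128835 and 82257 CPM, so its fall was no larger than that of Alb. Of 12 macrophage markers 10 were lower, with a summed 636 to 805 CPM against 279 to 562 CPM. Beside these marker and clock gene counts, 14.9% of all 14353 genes tested were higher and 16.2% lower. Of 12 kidney tubule markers, 9 had at most 10 counts in every library. Of the rest, Slc27a2 had 1169 to 2066 CPM over all libraries and was not called. Acsm2 was called higher, with 0.301 to 0.832 CPM in Bmal1+/+ libraries and 5.25 to 6.65 CPM in the others. Lrp2 had 2 to 4 and 6 to 24 counts and was not tested. Xist had 14165 to 17102 counts in Bmal1+/+ libraries and 2 to 12 in the libraries labelled Bmal1-/-, and 4 Y-linked transcripts had 0 counts in each of the former and at least 183 in each of the latter, so sex and the genotype label cannot be told apart in any result below. Replicate 4 of the libraries labelled Bmal1-/- stood apart, with a summed 63330 CPM (a count scaled to the library's size by edgeR's TMM method) of acute-phase transcripts against 7550 to 9379 CPM in the other 3. In bulk RNA, fewer cells of a type and less RNA per cell cannot be told apart.

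Of the 42 transporters, 23 had enough counts for the test. In the libraries labelled Bmal1-/-, 5 were higher and 10 were lower at an adjusted p below 0.05, and 8 were not called. Over all 14353 genes tested, 14.9% were higher, 16.2% were lower and 31.1% changed in either direction. In 14 of the 23 the groups did not overlap, 5 higher and 9 lower, where 33.4% of all genes tested did not overlap. By the study's own criterion, which asks for a log2 fold change beyond 1 in either direction and p below 0.05 before adjustment, 4 transporters were higher and 8 lower, beside 5.41% and 8.71% of all genes tested. The median log2 fold change of the 23 was -0.19, and that of all genes tested was 0.02. Calls rest on quasi-likelihood tests in edgeR, adjusted by the Benjamini-Hochberg method over all genes tested, which is also the source of each log2 fold change, its standard error (SE) and its adjusted p below. All differences are the libraries labelled Bmal1-/- minus Bmal1+/+.

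**Figure D1:**
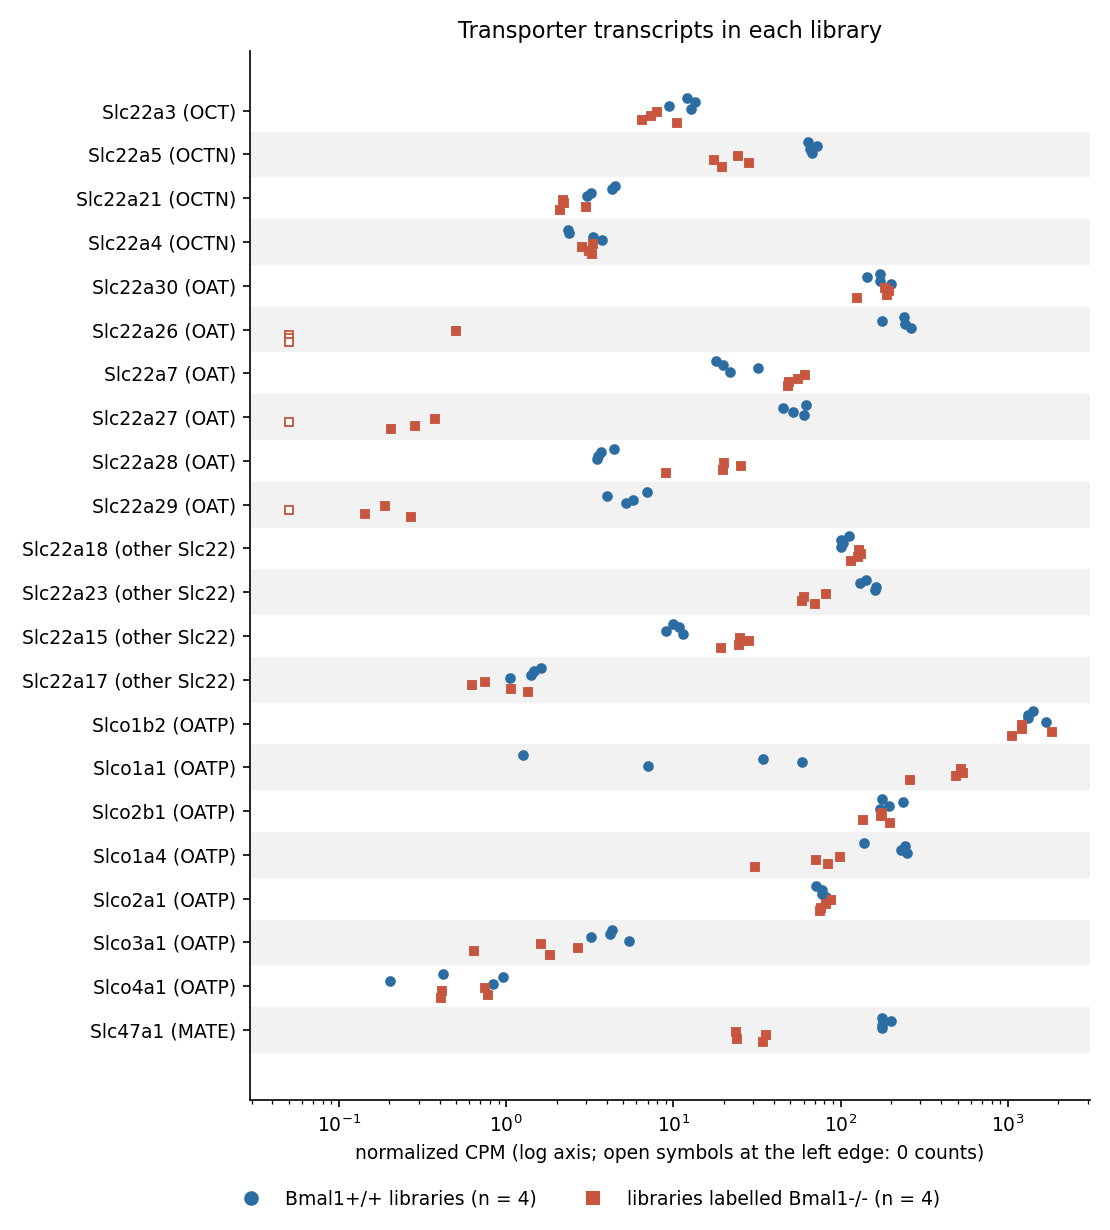
Normalized CPM (log axis) of 22 of the 23 transporters tested, 1 row per gene with its group in brackets, with blue circles for the 4 Bmal1+/+ libraries, red squares for the 4 libraries labelled Bmal1-/- and open symbols at the left edge for 0 counts. Slc22a26, Slc22a27, Slc22a29 and Slc47a1 lie far to the left in the libraries labelled Bmal1-/-, and Slco1a1 lies far to the right.

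The largest differences lay among the OATs, in a run of neighbouring genes on chromosome 19 between 7673061 and 8628299 of GRCm38 that holds 8 of the 42 transporters over 955.2 kb. In this run, 3 genes fell to near 0, 1 rose and 1 was not called. The remaining 3, Slc22a19, Slc22a8 and Slc22a6, had at most 1 count in any library. Slc22a6 and Slc22a8 encode OAT1 and OAT3, the main organic anion uptake carriers of the kidney tubule.

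Slc22a26 (7781041 to 7802667, minus strand) had 239, 176, 243 and 264 CPM in the 4 Bmal1+/+ libraries, and 0.500, 0, 0 and 0 CPM in the libraries labelled Bmal1-/-. The 8 counts in that group were all in replicate 1. The summed counts, scaled to the libraries, gave a ratio of Bmal1+/+ over labelled Bmal1-/- of 1715 (exact 95% interval of counting error alone, 870 to 3974), and the log2 fold change was -10.66 (SE 0.56, adjusted p = 2.26e-06).

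Slc22a27 (7864388 to 7966027) had 61.8, 45.3, 52.1 and 60.7 CPM in Bmal1+/+ libraries, against 0.375, 0, 0.285 and 0.204 CPM. Its ratio was 252 (147 to 474) and its log2 fold change -7.92 (SE 0.34, adjusted p = 8.35e-07). Slc22a29 (8160165 to 8218900) was a weaker transcript, with 6.92, 4.03, 5.71 and 5.23 CPM against 0.187, 0, 0.142 and 0.271 CPM. For this gene the ratio was 36.1 (18.8 to 79.6) and the log2 fold change -5.10 (SE 0.44, adjusted p = 3.85e-05). In all 3 genes every library labelled Bmal1-/- was far below every Bmal1+/+ library.

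Slc22a28 (8062209 to 8131982), which lies between Slc22a27 and Slc22a29, moved the other way. It had 4.39, 3.71, 3.56 and 3.51 CPM in Bmal1+/+ libraries, against 20.05, 25.3, 19.8 and 9.02 CPM in the libraries labelled Bmal1-/-. The groups did not overlap, replicate 4 was the lowest of its group, and the log2 fold change was 2.29 (SE 0.28, adjusted p = 3.44e-04). Without replicate 4 it was 2.52 (SE 0.15).

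Slc22a30 (8335371 to 8405111) was not called. Its values were 171, 143, 172 and 201 CPM in Bmal1+/+ libraries and 184, 194, 190 and 126 CPM in the other group, with overlap. The log2 fold change was 0.01 (SE 0.16, adjusted p = 0.960), and its sign turned in 6 of the alternative fits, always without a call. Slc22a28 rose, but Slc22a26, Slc22a27 and Slc22a29 fell, so Slc22a30 took a larger share of the summed FPKM of Slc22a26 to Slc22a30. FPKM is the authors' depth-scaled value per length of transcript. The share of Slc22a30 was 27.1 to 29.7% in Bmal1+/+ libraries and 75.5 to 84.4% in the others. Slc22a26 was the leading transcript of the 5 in Bmal1+/+ libraries, with 46.0 to 49.95% of that sum.

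**Figure D2:**
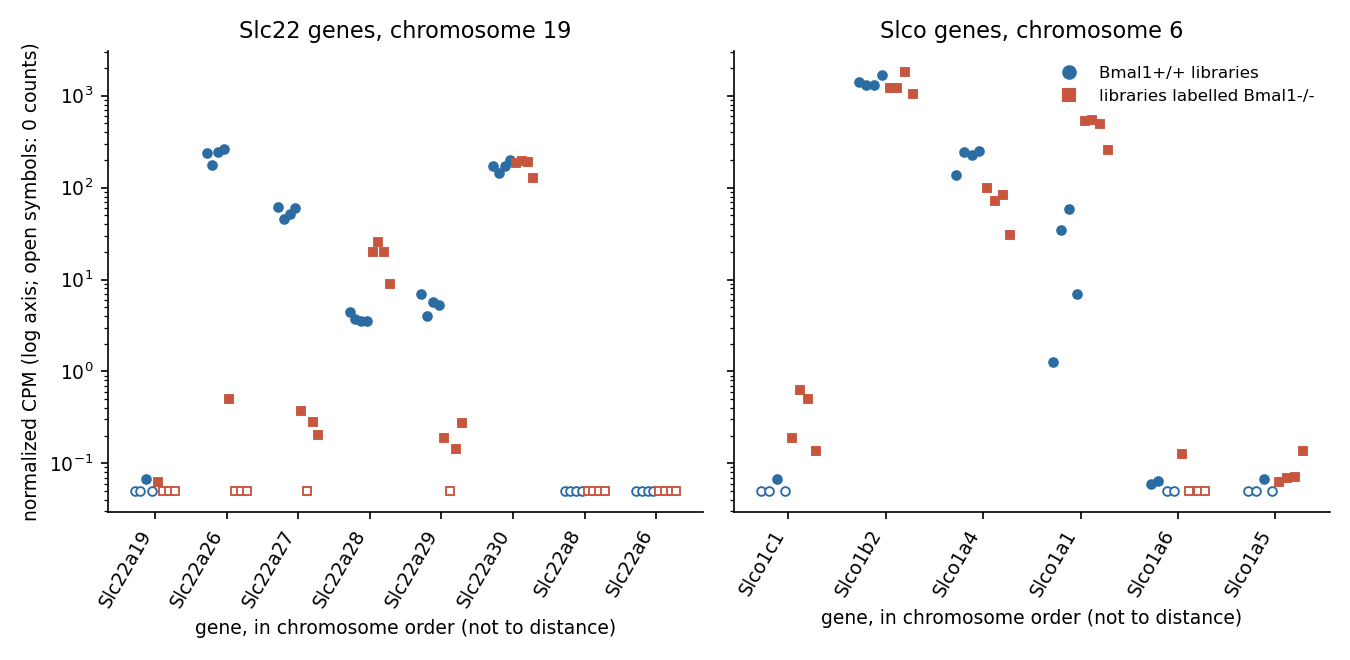
Normalized CPM (log axis) of the transporters in the runs on chromosomes 19 (left) and 6 (right), in gene order along the chromosome and not to distance, with blue circles for Bmal1+/+ libraries, red squares for the libraries labelled Bmal1-/- and open symbols for 0 counts. Neighbouring genes of both runs lay higher, lower or overlapping between the groups.

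The genes of the chromosome 19 run are close relatives. In the longest annotated coding sequence, Slc22a28 and Slc22a30 were 98.8% identical over 1656 aligned bases, and Slc22a27 and Slc22a29 were 97.3% identical over 1653. Between these pairs identity was 92.1 to 92.7%, and Slc22a26 was 76.2 to 77.3% identical to the other 4. The latter pair fell together, while of the former pair one rose and the other was not called. Of the 50-base stretches in annotated transcripts of Slc22a28, 53.3% also occur in those of Slc22a30, and 30.99% the other way round. Slc22a27 and Slc22a29 share 25.3% and 23.0%, and reads from shared stretches cannot be assigned to a particular gene. The level of Slc22a28 beside the far more abundant Slc22a30 is therefore uncertain. So is that of Slc22a29 in Bmal1+/+ libraries, where Slc22a27 was far more abundant. Whether reads of Slc22a27 contributed to the fall counted for Slc22a29 was not tested. As a share of the summed FPKM of the 5 genes, Slc22a28 took 1.27 to 1.91% in Bmal1+/+ libraries and 15.04 to 24.5% in the libraries labelled Bmal1-/-, where the sum itself was lower.

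The 250 bases before the RefSeq start of these genes (GRCm38.p6, minus strand, written 5′ to 3′) are shown for the pair that differed in response and for Slc22a29 and Slc22a26, which fell. Slc22a28 (chr19:8131983-8132232) and Slc22a30 (chr19:8405106-8405355) differ at 6 of 244 aligned bases, given in capitals, which makes them 97.5% identical. Slc22a29 (chr19:8218901-8219150) has no capitals, and in Slc22a26 (chr19:7802668-7802917) they mark a GAS-type match, described further on.
Slc22a28: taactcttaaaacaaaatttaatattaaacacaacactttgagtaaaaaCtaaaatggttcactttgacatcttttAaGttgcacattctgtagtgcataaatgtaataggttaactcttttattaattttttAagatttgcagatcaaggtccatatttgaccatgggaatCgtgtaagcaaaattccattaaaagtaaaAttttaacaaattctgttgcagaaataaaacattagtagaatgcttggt
Slc22a30: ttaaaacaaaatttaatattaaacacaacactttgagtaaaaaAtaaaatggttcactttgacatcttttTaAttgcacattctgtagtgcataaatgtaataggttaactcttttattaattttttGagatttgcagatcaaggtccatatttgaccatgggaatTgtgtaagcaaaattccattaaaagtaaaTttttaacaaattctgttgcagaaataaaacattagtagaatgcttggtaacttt
Slc22a29: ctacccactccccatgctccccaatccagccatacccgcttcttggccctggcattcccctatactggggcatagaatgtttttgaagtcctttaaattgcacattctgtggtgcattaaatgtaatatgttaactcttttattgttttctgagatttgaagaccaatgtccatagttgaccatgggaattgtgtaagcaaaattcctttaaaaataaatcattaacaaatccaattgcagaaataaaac
Slc22a26: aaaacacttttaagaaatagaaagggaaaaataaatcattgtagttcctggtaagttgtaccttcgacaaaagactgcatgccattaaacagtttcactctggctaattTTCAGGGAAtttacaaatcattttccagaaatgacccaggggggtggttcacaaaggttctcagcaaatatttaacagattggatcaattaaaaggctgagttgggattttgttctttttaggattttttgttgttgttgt
Over the RefSeq windows of 300 bases, which add 50 bases after the start, Slc22a29 was 81.7% identical to Slc22a28 over 263 aligned bases and 82.9% identical to Slc22a30 over 257.

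Outside this run, Slc22a7, which encodes OAT2, an uptake carrier of the hepatocyte for small organic anions and nucleobases, was higher. It had 17.998, 19.7, 32.1 and 21.9 CPM in Bmal1+/+ libraries, against 61.1, 55.4, 49.2 and 48.5 CPM in the libraries labelled Bmal1-/-. The groups did not overlap, and the log2 fold change was 1.22 (SE 0.18, adjusted p = 9.52e-04). The summed FPKM of the 13 OATs was 101.6 to 143 in Bmal1+/+ libraries and 48.6 to 76.1 in the others, without overlap. Slc22a12, Slc22a13, Slc22a20 and Slc22a22 had at most 1 count in any library. Slc22a12 encodes the urate carrier URAT1 of the kidney.

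Among the OCTs, Slc22a3 (OCT3, a low-affinity carrier of monoamines, chromosome 17) had 11.98, 13.4, 9.41 and 12.8 CPM against 7.93, 7.34, 6.48 and 10.4 CPM. It was called lower, with a log2 fold change of -0.56 (SE 0.18, adjusted p = 0.036), but replicate 4 of the libraries labelled Bmal1-/- lay within the range of Bmal1+/+ libraries. The adjusted p over the alternatives ran from 0.0098 to 0.096. Up to 420 exonic bases of Slc22a3 lie opposite Plg, a secreted liver gene, and strand use in the counting is not given in the sources used here. Slc22a2 (OCT2 of the kidney) had 0 to 11 counts in a library and was not tested.

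The OCTN genes Slc22a4, Slc22a5 and Slc22a21 lie side by side on chromosome 11, and of these Slc22a5 and Slc22a21 were lower. Slc22a5 (OCTN2, the sodium-driven carnitine carrier, 53864542 to 53891660) had 63.9, 71.7, 65.5 and 67.5 CPM in Bmal1+/+ libraries and 24.2, 17.6, 28.5 and 19.5 CPM in the libraries labelled Bmal1-/-. The groups lay far apart, with a 2.99-fold higher level in Bmal1+/+ libraries (log2 fold change -1.58, SE 0.15, adjusted p = 6.97e-05).

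Slc22a21, a carnitine carrier found in rodents, had 4.45, 4.29, 3.22 and 3.06 CPM against 2.19, 2.22, 2.99 and 2.10 CPM. It was called lower (log2 fold change -0.66, SE 0.21, adjusted p = 0.040) and its groups did not overlap, although the gap between 2.99 and 3.06 CPM was narrow. Over the alternatives the adjusted p was between 0.027 and 0.106. Slc22a5 and Slc22a21 share 26.1% and 21.7% of their 50-base stretches with each other, so the split of reads between them is uncertain. Slc22a4 (OCTN1, the ergothioneine carrier) was not called, with 2.35 to 3.73 CPM and 2.84 to 3.31 CPM in the groups and a log2 fold change of 0.09 (SE 0.21). Slc22a16 had 0 counts in all 8 libraries. The summed FPKM of the 4 OCTN genes was 17.1 to 18.2 and 5.73 to 8.43.

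The other Slc22 genes are less well characterised carriers. Slc22a15 had 9.99, 10.8, 9.002 and 11.4 CPM in Bmal1+/+ libraries and 25.0, 28.4, 24.6 and 19.3 CPM in the libraries labelled Bmal1-/-, without overlap (log2 fold change 1.24, SE 0.14, adjusted p = 2.06e-04). Slc22a23 went down, from 141, 130, 162 and 161 CPM to 81.6, 60.6, 58.8 and 70.3 CPM, again without overlap (log2 fold change -1.13, SE 0.13, adjusted p = 2.55e-04). A small rise was called for Slc22a18, an imprinted gene. Its values were 112, 101, 103 and 100.3 CPM against 128, 133, 127 and 116 CPM, the groups did not overlap, and the log2 fold change was 0.28 (SE 0.09, adjusted p = 0.044). This call was lost in most alternatives, with adjusted p between 0.022 and 0.115. Slc22a17, a receptor for lipocalin 2, was not called, with 1.06 to 1.63 CPM and 0.623 to 1.36 CPM (log2 fold change -0.55, SE 0.30). Slc22a14, a carrier known from testis, had 0 to 3 counts.

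**Figure D3:**
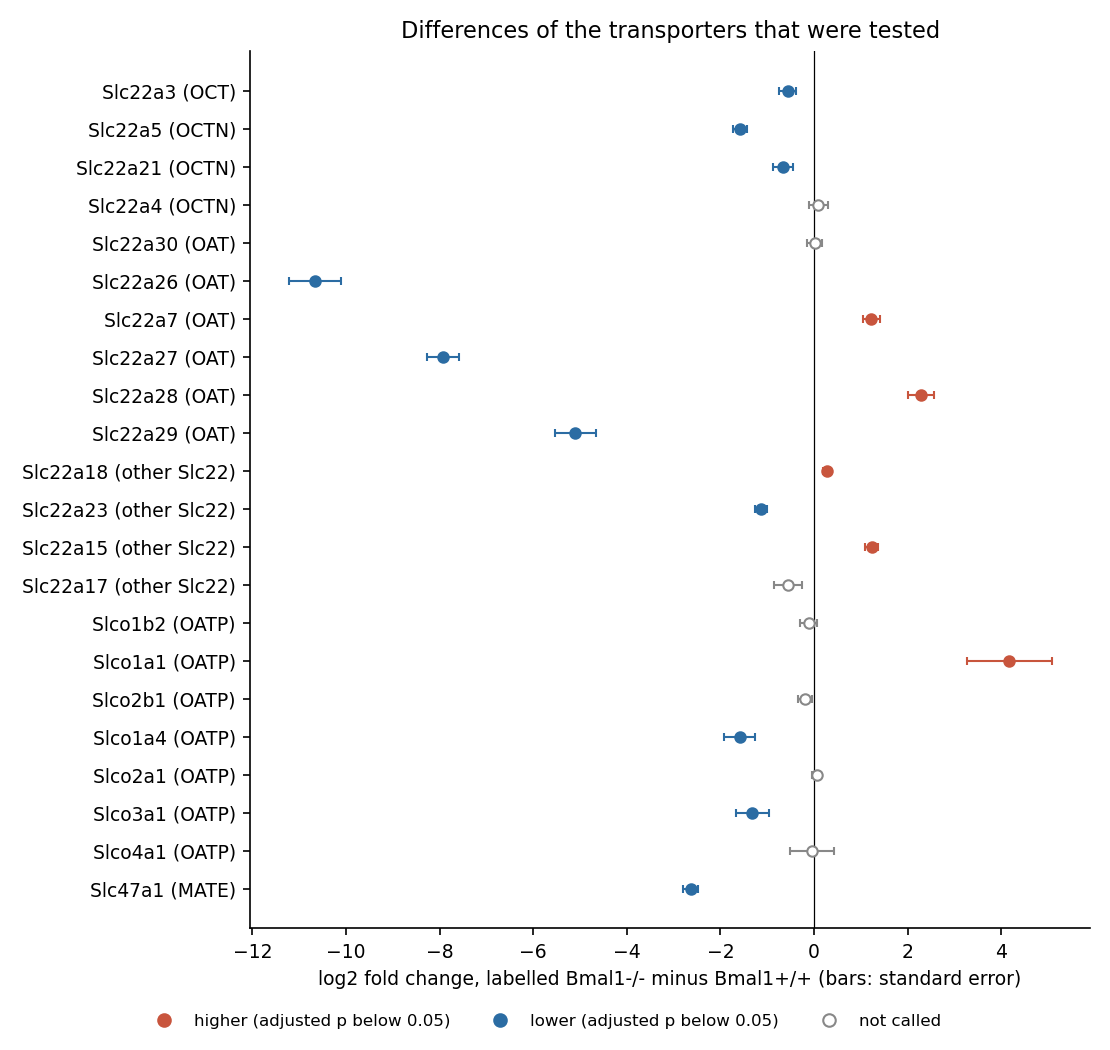
Log2 fold change (labelled Bmal1-/- minus Bmal1+/+) of 22 of the 23 transporters tested, with bars for the standard error, filled red symbols for 5 genes called higher, filled blue symbols for 10 called lower and open grey symbols for 7 not called. The range runs from -10.66 for Slc22a26 to 4.17 for Slco1a1.

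Of the 15 OATPs, 7 were tested, 1 was higher and 2 were lower, beside 14.9% higher and 16.2% lower of all genes tested. The 3 abundant OATPs of the hepatocyte lie in a run of 6 transporters on chromosome 6, between 141524368 and 142322981. Slco1a1 (OATP1A1, a hepatic carrier of bile acids and steroid conjugates that is known for high levels in the liver of male mice) rose more than any other transporter tested. Its Bmal1+/+ values were 1.26, 34.3, 58.4 and 7.02 CPM, a coefficient of variation of 104%, and the libraries labelled Bmal1-/- had 528, 538, 489 and 259 CPM.

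Every library labelled Bmal1-/- was above every Bmal1+/+ library. The log2 fold change was 4.17 (SE 0.91, adjusted p = 0.0070), the largest standard error of any transporter tested. It was 5.00 (SE 0.96) without Bmal1+/+ replicate 3, and ran from 3.77 (without Bmal1+/+ replicate 1) to 4.37 (without replicate 4 of the other group) when any other library was left out.

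Slco1a4 (OATP1A4, a carrier of bile acids and digoxin), the nearest of the 42 transporters to Slco1a1, fell. It had 138, 241, 228 and 248 CPM in Bmal1+/+ libraries against 99.2, 71.0, 83.8 and 30.6 CPM in the other group. The groups did not overlap (log2 fold change -1.59, SE 0.33, adjusted p = 0.0055), and without replicate 4 of the libraries labelled Bmal1-/- the log2 fold change was -1.33 (SE 0.21). Slco1a1 made up 0.858 to 19.4% of the summed FPKM of these neighbours in Bmal1+/+ libraries and 83.4 to 88.9% in the libraries labelled Bmal1-/-. Their coding sequences were 87.2% identical over 2006 aligned bases, yet 1.58% of the 50-base stretches of Slco1a1 occur in Slco1a4.

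The 250 bases before their RefSeq starts (GRCm38.p6, both on the minus strand, 5′ to 3′) are shown because the neighbours moved in opposite directions. Slco1a1 is at chr6:141946963-141947212 and Slco1a4 at chr6:141856221-141856470. Neither window holds any of the motifs searched, so neither has capitals.
Slco1a1: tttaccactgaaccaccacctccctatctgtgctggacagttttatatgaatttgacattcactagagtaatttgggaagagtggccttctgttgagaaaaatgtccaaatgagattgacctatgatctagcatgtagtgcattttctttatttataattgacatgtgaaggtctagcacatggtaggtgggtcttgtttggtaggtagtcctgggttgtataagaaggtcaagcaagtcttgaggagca
Slco1a4: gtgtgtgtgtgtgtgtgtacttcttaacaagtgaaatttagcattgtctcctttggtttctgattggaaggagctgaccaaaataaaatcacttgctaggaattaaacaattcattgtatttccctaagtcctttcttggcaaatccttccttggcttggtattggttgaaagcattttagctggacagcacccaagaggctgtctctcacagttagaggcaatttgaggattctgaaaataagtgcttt
The windows of 300 bases were 71.2% identical over 240 aligned bases.

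Slco1b2 (OATP1B2, the mouse counterpart of the human OATP1B carriers of bilirubin and statins) was not called. It had 1419, 1322, 1321 and 1702 CPM in Bmal1+/+ libraries and 1222, 1211, 1825 and 1052 CPM in the others. The groups overlapped, and the log2 fold change was -0.12 (SE 0.19, adjusted p = 0.670). The summed CPM of Slco1a1, Slco1a4 and Slco1b2 also overlapped, from 1558 to 1956 and from 1342 to 2398.

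In the same run, Slco1a5 and Slco1a6 had at most 2 counts. Slco1c1 (OATP1C1, a thyroxine carrier) had 0, 0, 1 and 0 counts in Bmal1+/+ libraries and 3, 9, 7 and 2 counts in the libraries labelled Bmal1-/-. It did not pass the filter on low counts. DESeq2 called it higher (adjusted p = 0.011), as did edgeR with no filter (adjusted p = 0.021).

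Slco2a1, the prostaglandin carrier, was not called, with 71.1, 77.3, 77.2 and 81.8 CPM against 87.2, 81.8, 75.8 and 75.4 CPM (log2 fold change 0.06, SE 0.09, adjusted p = 0.663). Slco2b1, a broad carrier of steroid sulfates, had 178, 236, 194 and 172 CPM against 177, 174, 136 and 198 CPM and was not called either (log2 fold change -0.19, SE 0.15, adjusted p = 0.368). The groups overlapped in both. Up to 471 exonic bases of Slco2b1 and 104 of Slco2a1 lie opposite other annotated genes.

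Slco3a1, a carrier of prostaglandins and thyroxine, was lower at 1.62, 2.70, 0.640 and 1.83 CPM, against 4.27, 4.16, 3.22 and 5.40 CPM in Bmal1+/+ libraries. The groups did not overlap (log2 fold change -1.32, SE 0.35, adjusted p = 0.018). Slco4a1 was not called, with 0.202 to 0.960 CPM and 0.407 to 0.783 CPM. Slco4c1 had 1 count in all, and Slco5a1, Slco6b1, Slco6c1 and Slco6d1 had none.

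Slc47a1 (MATE1, the proton-driven exporter of organic cations into bile and urine, chromosome 11, 61343401 to 61378345) was lower. It had 176, 200.1, 177 and 178 CPM in Bmal1+/+ libraries and 23.7, 35.9, 24.1 and 34.1 CPM in the libraries labelled Bmal1-/-. The groups were far apart, with a 6.20-fold higher level in Bmal1+/+ libraries (log2 fold change -2.63, SE 0.16, adjusted p = 5.33e-06). No 50-base stretch of the annotated Slc47a1 transcripts occurs, in the same orientation, in an annotated transcript of another gene. Slc47a2 had 2 counts in 1 Bmal1+/+ library and none elsewhere.

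Per length, the leading transporters of the groups differed in part. In both groups Slco1b2 had the highest mean FPKM, at 239 ± 27.9 (SD, n = 4) in Bmal1+/+ libraries and 224 ± 57.1 (SD, n = 4) in the others. In Bmal1+/+ libraries Slc22a26 (57.6 ± 9.78 FPKM) overlapped Slc22a18, which followed it (44.7 ± 3.03 FPKM). In the libraries labelled Bmal1-/- the place before Slc22a18 was held by Slco1a1 (60.3 ± 18.4 FPKM), which overlapped it (55.1 ± 4.36 FPKM). Slc47a1 stood just behind Slc22a18 in Bmal1+/+ libraries (37.9 ± 1.91 FPKM) and behind Slc22a23 in the other group (6.23 ± 1.36 FPKM). Slco1b2 alone took 32.5 to 38.0% and 33.6 to 43.8% of the summed FPKM of all 42 transporters. That sum overlapped between the groups, at 634 to 731 and 495 to 699 FPKM, as did the sums of the other Slc22 and of the OATP genes.

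**Figure D4:**
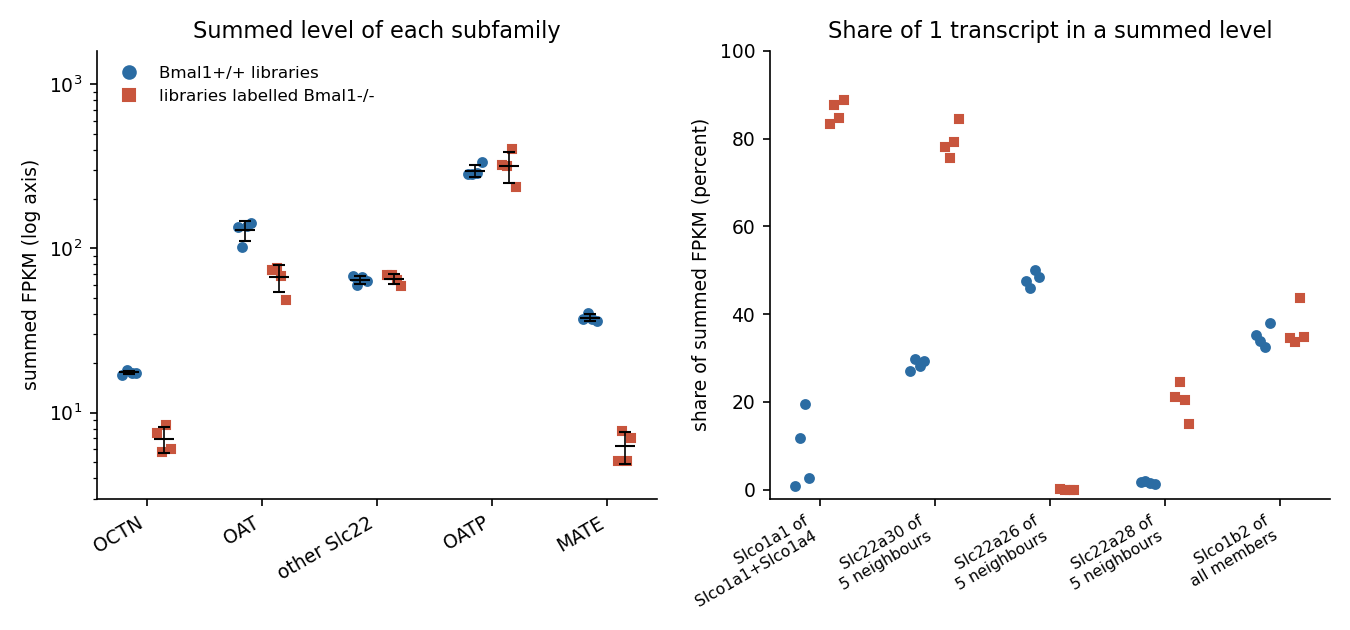
Left, summed FPKM (log axis) of 5 transporter groups in each library, with black bars for the mean and SD of 4 libraries. Right, the percent of a summed FPKM taken by 1 transcript, where the 5 neighbours are Slc22a26 to Slc22a30. OAT, OCTN and MATE sums and the first 4 shares did not overlap between Bmal1+/+ libraries (blue circles) and the libraries labelled Bmal1-/- (red squares).

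RefSeq promoter windows of 250 bases before to 50 after a start were found for 36 of the 42 transporters, 41 windows in all. Slc22a7, Slc22a21, Slc47a1, Slco3a1 and Slco5a1 were among those without one. They were searched on both strands for the E-box CACGTG bound by Bmal1 with its partner Clock and for TTCNNNGAA, the GAS-type motif of STAT factors, and no matches of different motifs overlapped. The E-box was in windows of Slc22a4, Slc22a16 and Slco1c1, which is 3 of 36 genes and 3 of 41 windows. Of all 32851 windows, 7.15% hold it. Of the 15 transporters called, 11 had a window and 0 held the E-box. TTCNNNGAA was in 7 of 36 genes and 8 of 41 windows, beside 8.30% of all windows. Among these genes were Slc22a15, which rose, Slc22a26, which fell, and Slco1b2 and Slco2b1, which were not called. A match is a string in the sequence and was not tested for binding.

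Genes that regulate these transporters or work beside them were followed as a list of 81 matched genes, of which 76 were tested, 8 were higher and 29 were lower, against 14.9% higher and 16.2% lower of all genes tested. Their median log2 fold change was -0.33. Of 28 transcription factors and receptors, 3 were higher and 8 lower. Of 32 partner transporters and scaffold proteins, 28 were tested, 3 were higher and 11 lower. Of 11 genes of carnitine synthesis, transport and use, 10 were tested, 0 were higher, 5 were lower, and 5 were not called. The 10 conjugation and related enzymes gave 2 higher and 5 lower.

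The hepatocyte factor Hnf4a (-0.21, SE 0.15) and the bile acid receptor Nr1h4 (0.02, SE 0.12) were not called. Of the xenobiotic receptors, Nr1i2 (PXR) was lower by a small amount (-0.42, SE 0.13, adjusted p = 0.033) and Nr1i3 (CAR) was just short of the threshold (-0.73, SE 0.25, adjusted p = 0.054). Cux2, a repressor known from female mouse liver, had 60.3 to 84.0 CPM in Bmal1+/+ libraries and 0.204 to 0.874 CPM in the libraries labelled Bmal1-/- (-7.39, SE 0.33). Bcl6, a repressor known for higher levels in male liver, had 10.7 to 22.2 CPM and 67.6 to 129 CPM (2.51, SE 0.27). The estrogen receptor Esr1 had 90.9 to 110 CPM and 2.70 to 17.4 CPM (-3.72, SE 0.49). Cux2, Bcl6 and Esr1 did not overlap between the groups.

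Among the partners, the sodium-driven bile acid carrier Slc10a1 (-0.38, SE 0.15, adjusted p = 0.074) and the bile salt export pump Abcb11 (0.19, SE 0.20) were not called. The conjugate pump Abcc2 of the canalicular membrane was lower (-0.44, SE 0.15, adjusted p = 0.046), its basolateral relative Abcc3 was not called (adjusted p = 0.999, SE 0.20), and Abcc4 was lower (-2.41, SE 0.36). Abcb1a, a drug efflux pump, had 30.2 to 32.2 CPM in Bmal1+/+ libraries and 0.416 to 1.19 CPM in the others (-5.45, SE 0.24). Of the enzymes named, Gsta2 was lower (-2.55, SE 0.33) and Gstm1 was higher (0.94, SE 0.15). Neither the hepatocyte marker level nor the sex transcripts were separated from these differences, and their part in them was not tested.

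**Figure D5:**
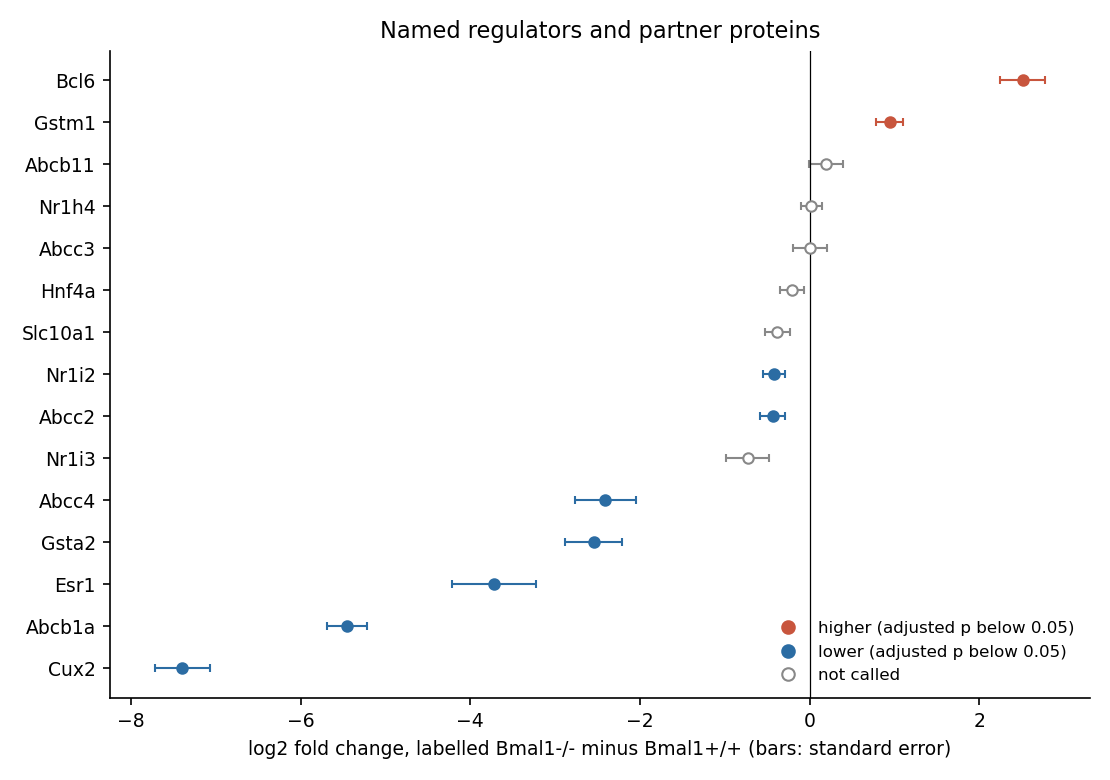
Log2 fold change (labelled Bmal1-/- minus Bmal1+/+) of named regulators, partner transporters and enzymes, with bars for the standard error, red for higher, blue for lower and open grey symbols for not called. Cux2, Abcb1a and Esr1 lay lowest and Bcl6 highest.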

How the data were processed

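RNA labelled as tumor stromal vascular fraction was sequenced in 8 libraries, 4 per genotype label. The authors deposited whole-number counts per gene, not normalized, and FPKM values. Their text names HISAT2 and StringTie on GRCm38, whereas the submitters' processing notes name CASAVA 1.8 and TopHat2 2.0.6. The sources used here do not give how multi-mapped reads or strand were treated. The deposited FPKM matched the count over library total and 1 fixed length per gene within 1% in 100% of 11111 genes compared, and was used for levels between genes.

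Symbols and coordinates came from GENCODE annotation of GRCm38 (99.4% of 55487 identifiers matched). Counts were tested with edgeR 4.0.16 in R 4.3.3, after filterByExpr and TMM scaling, by the quasi-likelihood test, with Benjamini-Hochberg adjustment over 14353 genes and a call below 0.05. The SE is the absolute log2 fold change over the square root of F. The common dispersion was 0.0506. CPM used TMM-scaled totals. A count of 3 was the floor, 0.163 to 0.213 CPM, which covers counting error only. Libraries of 1 group differed by more than sampling noise (chi-square per degree of freedom at least 19.6). The series text gives 4 mice per group. Identity was computed by global alignment with free end gaps in Biopython 1.88 and figures with matplotlib 3.10.9. The fit was also run on counts simulated from its own estimated dispersions, so that run does not test its assumptions on these data.

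Values in every sample are given for called members averaging 1 CPM or more and for members not called averaging 5 CPM or more, and the regulators named are 10 chosen by name and the 4 highest and 4 lowest called without overlap. Results of some genes that these rules name are not reported here. Members and lists were chosen with earlier results of these data known. Alternatives were DESeq2 1.42.0, upper-quartile scaling, library size only, no filter, at least 10 counts in every sample, limma 3.58.1 on log2 FPKM plus 0.1 or 1, the replicate number as a block, and leaving out each library. The study's criterion was added after the data were seen.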

Additional observations from a re-analysis of the deposited data

Results flagged for a closer look

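In each group of 4 libraries, the gap of the most distant library to the others was compared with the group's range by Dixon's criterion, in 90 groups of values, and 10 stood out where chance gives about 1 in 20. Of the transporters, Slc22a30 had 125.7 CPM in replicate 4 of the libraries labelled Bmal1-/-, below the 184.0 to 193.6 CPM of the other 3. Slc22a21 had 2.989 CPM in replicate 3 of that group, above 2.103 to 2.216 CPM. Slc22a26 had 0.4996 CPM in replicate 1 of that group, where the other 3 had 0. With the other 3 at 0 any count is flagged, so the rate of 1 in 20 does not hold there. Slc47a1 had 200.1 CPM in Bmal1+/+ replicate 2, above 176.1 to 177.9 CPM.

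Of the regulators, Hnf4a had 681.3 CPM in Bmal1+/+ replicate 4, below 877.0 to 899.7 CPM, and Nr1i2 had 148.2 CPM in Bmal1+/+ replicate 2, above 125.4 to 128.4 CPM. Esr1 had 17.43 CPM in replicate 4 of the libraries labelled Bmal1-/-, above 2.704 to 4.996 CPM. In the same library the summed marker levels were 153.4 CPM for cholangiocytes (63.84 to 70.19 CPM in the other 3), 562.2 CPM for macrophages (279.0 to 316.1 CPM) and 63330 CPM for acute-phase transcripts (7550 to 9379 CPM). Without this library 5 transporters were higher and 9 lower.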

How the results depend on the processing

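Of the 15 transporter calls, those of Slc22a18, Slc22a21 and Slc22a3 were lost in 25 single fits in all, and the other 12 kept direction and call in every fit that could test them. With at least 10 counts in every sample, 6 transporters were lower, because Slc22a26, Slc22a27, Slc22a29 and Slco3a1 then left the test. Leaving out 1 library gave 4 to 5 transporters higher and 8 to 10 lower. The uncalled value of Slc22a30 turned sign with DESeq2 (log2 fold change -0.0015), with at least 10 counts in every sample (-0.0065), and in leave-one-out fits that ran from -0.068 to 0.143. The cause was not tested. Without replicate 1 of the libraries labelled Bmal1-/-, Slc22a26 is at 0 in that whole group and the fitted value of -14.80 depends on the prior count. By the study's criterion, 3 regulators and partners were higher and 14 lower, and of all genes 776 were higher and 1250 lower.

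With the replicate number as a block, 4 transporters were higher and 9 lower. Deviations of same-numbered samples correlated at -0.064, 0.063, 0.043 and 0.036, and 1 of 4 numbers was its own best match, so the numbers were not taken to pair the samples. Lower calls outnumbered higher ones among all genes (2322 against 2135), but not with library size only (2177 against 2282) or with limma on FPKM (2220 against 2273 with 0.1 added, 2216 against 2291 with 1 added). Among the called transporters, depth was limiting for Slc22a26, Slc22a27 and Slc22a29, whose lower group had 8, 13 and 9 counts over 4 libraries. Slco3a1 was also low in that group, with 26, 39, 9 and 27 counts in its libraries.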
